A study of Mus musculus with 12 samples.

Results

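The genes described here encode extracellular proteases, the machinery that activates or restrains them, and a matrix protein that binds cells. They are 10 of the 19505 genes read on the arrays and were taken by name, each through its brightest probe set by mean signal: the plasminogen activator gene Plau and its receptor gene Plaur, the metalloproteinase genes Adam8, Adamts4, Mmp9, Mmp12, Mmp13 and Mmp14, the inhibitor gene Timp1 and the matricellular gene Thbs1. Each had a single probe set. Measured values played no part in choosing them by rule, although results of these data were known when they were proposed.

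Proteases outside the cell cut matrix proteins, growth factor precursors and one another. Urokinase, bound to its receptor on the macrophage surface, turns plasminogen into plasmin, and plasmin can activate matrix metalloproteinases from their latent forms. Macrophages make several of these enzymes, among them an elastase, a gelatinase and a collagenase, while inhibitors of the TIMP family bind metalloproteinases and block them.

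The cells were RAW 264.7, a mouse line with macrophage features, and their RNA was measured with 1 Affymetrix array per sample and 3 arrays in each of 4 groups. Every group was given LPS (lipopolysaccharide, a bacterial membrane component that activates macrophages) at 500 ng/mL, and the groups differed in what else the cells received: nothing more (LPS alone), TsSP at 50 µg/mL, inulin (a plant fructan) at 500 µg/mL, or inulin and TsSP at those same doses. The stimuli were present before LPS was added, and the cells then stood for 6 hours at 37°C with 5% CO2. TsSP is written as the labels have it, and the series' design text speaks of helminth products. No array without LPS was used, so the data compare treatments within LPS-stimulated cells of 1 line. The labels do not say whether replicate arrays were separate cultures, so each p-value reflects the spread between these samples alone, and that spread may be technical.

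The 11 measured macrophage markers were above background on all 12 arrays, with a list mean of 15.02 to 15.24 on the log2 scale. Single markers differed with TsSP in both directions: Adgre1 was 2.08-fold lower than with LPS alone, and Itgam, Lyz2 and Tyrobp were higher by 0.74, 0.44 and 0.58 on the log2 scale (limma, adjusted p = 0.00137, 0.000388, 0.0246 and 0.0327). No measured marker of neutrophils and mast cells (0 of 12) or of lymphocytes (0 of 9) was above background in any group. Of the osteoclast markers, 4 to 6 of 12 were above background per array. Nfatc1, Tnfrsf11a, Clcn7 and Tcirg1 were above it on all 12 arrays. Acp5, Ctsk, Calcr, Ocstamp, Oscar and Atp6v0d2 were below it on all arrays. The osteoclast list mean was 6.72 to 6.83 with LPS alone and 6.80 to 6.95 with TsSP, with Dcstamp at least 1.77-fold higher and Clcn7 2.59-fold lower in the TsSP group (limma, adjusted p = 3.66e-05 and 8.63e-06). The part of these markers in the results below was not tested. Among the other lists, the fibroblast marker Dcn was above background on 12 arrays, Acta2 on 11 and Col1a1 on 1. The epithelial marker Muc1 was above it on 9, and the dendritic cell markers Ccr7 and Bst2 on 12 each. Exon control probe sets of the array had a median 0.21 higher on the log2 scale with TsSP than with LPS alone, and LPS replicate 1 had the lowest median signal of the arrays (5.16, against up to 5.30). In RNA from whole cultures, fewer cells of a type and less RNA per cell cannot be told apart. The number of arrays limits the precision.

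Signals are the deposited log2 values, so a difference of 1 is a doubling, and a gene counts as above background when it is brighter than the brightest of 23 background probes on that array. By this measure, 8 of the 10 genes were above background on all arrays of at least 1 group, against 9022 of all 19505 genes. Mmp14 and Timp1 were below it on all 12 arrays. Signals of different probe sets were not compared with each other.

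With TsSP, the protease genes divided. Adam8, Mmp13 and Thbs1 rose and Plau and Adamts4 fell relative to LPS alone, which is 5 of 10 genes with an adjusted p under 0.05 in limma (Benjamini-Hochberg over all genes), where 18.1% of all genes passed. Of all genes 11% passed as higher, as did 3 of the 10, and 7.08% as lower, as did 2. Higher genes made up 60.8% of all calls on the deposited values and 31.8% when arrays were centred on exon controls. On that centring 2 of the 10 were higher and 3 lower, beside 1219 and 2609 of all 19505 genes. Adamts4 moved most, 6.28-fold down, and the rises were 2.70-fold for Thbs1, 2.63-fold for Adam8 and 1.36-fold for Mmp13. The median difference of the 10 genes was 0.05 on the log2 scale, with 0.02 over all genes. The TsSP and LPS arrays did not overlap in 7 of the 10 genes, and in 32.7% of all genes. A test over the 4 groups (limma's moderated F) passed the same 5 genes, Adam8, Plau, Adamts4, Mmp13 and Thbs1, beside 18.7% of all genes.

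**Figure D1:**
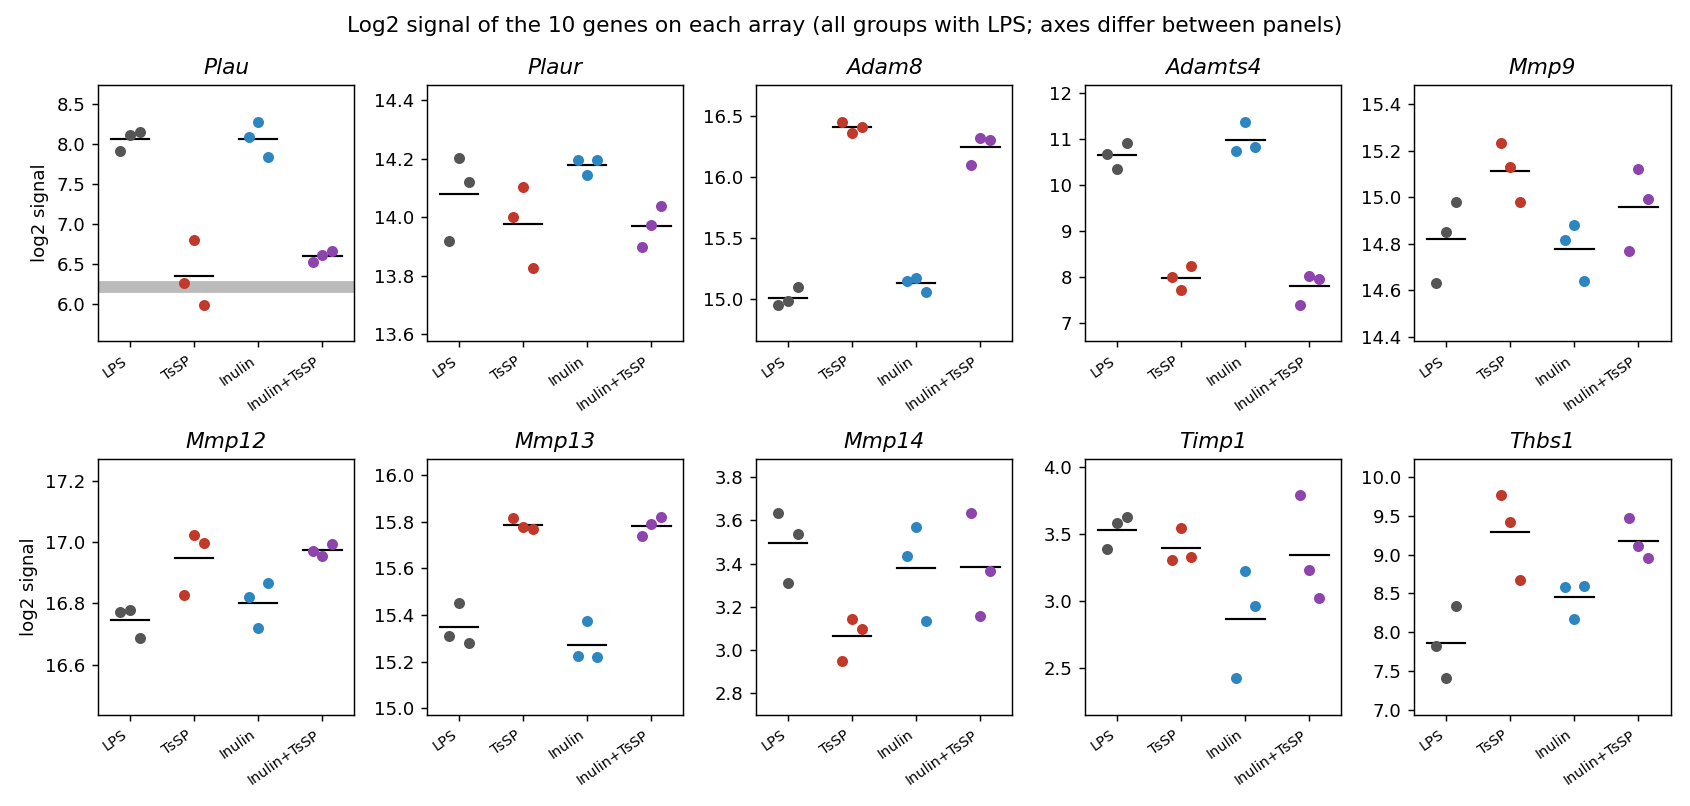
Log2 signal of each of the 10 genes on each of the 12 arrays, by group. Points are arrays, short lines are group means of 3 arrays, the grey band (visible for Plau) spans the brightest background probe of the arrays, and the axes differ between panels. The TsSP groups lie apart from the groups without it for Adam8, Plau, Adamts4 and Mmp13, and by a narrow margin for Thbs1. Plaur and Mmp9 overlap between LPS alone and TsSP.

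The plasminogen activator and its receptor differed in their response. Plau, which encodes urokinase, gave 7.91, 8.11 and 8.16 on the 3 arrays with LPS alone and 8.09, 8.28 and 7.84 with inulin (log2 signal). With TsSP it gave 6.27, 6.80 and 6.00, and with inulin and TsSP 6.53, 6.62 and 6.67. Every array with TsSP was below every array without it, and 1 of the 3 TsSP arrays was below background. Means of Plau were 8.06 ± 0.13 with LPS alone and 6.36 ± 0.41 with TsSP (SD, n = 3 each). Because part of the TsSP group was under background, the change is a bound: Plau was at least 3.13-fold lower, with a log2 difference of -1.71 (SE 0.19, limma adjusted p = 8.01e-05). In the presence of inulin, Plau fell 2.76-fold with TsSP (log2 difference -1.46, adjusted p = 0.000248 in limma).

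Plaur, the gene of the urokinase receptor, gave 13.92, 14.20 and 14.12 with LPS alone and 14.00, 14.10 and 13.83 with TsSP. Inulin arrays were at 14.20, 14.14 and 14.20, and those with inulin and TsSP at 13.90, 13.97 and 14.04. The LPS and TsSP arrays overlapped, while the arrays with inulin and TsSP were all below those with inulin. Neither difference passed the test: -0.10 for TsSP against LPS alone (95% interval -0.37 to 0.16, limma adjusted p = 0.643) and -0.21 for TsSP added to inulin (interval -0.47 to 0.054, adjusted p = 0.304).

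Further genes were taken from a list of 17 on plasminogen activation and on plasmin's cofactors and brakes. That list also holds genes of coagulation and its control, Procr and Thbd among them. Besides Plau and Plaur, 13 of its genes were on the arrays and 7 of those were above background. With TsSP, 5 of the 13 rose and 0 fell (limma, Benjamini-Hochberg over all genes), beside 11% of all genes higher and 7.08% lower. The median difference was 0.28 on the log2 scale where that over all genes was 0.02. On exon control centring 4 rose and 0 fell, beside 1219 and 2609 of all 19505 genes. The median on that scale was 0.078, where that over all genes was -0.19. Procr, the endothelial protein C receptor gene, rose 2.29-fold, and Lrp1, a receptor gene that clears protease and inhibitor complexes, rose 2.53-fold. Thbd, which encodes thrombomodulin, was below background with LPS alone and was at least 1.48-fold higher with TsSP. Both chains of the annexin A2 complex, a cell-surface plasminogen binder, were called higher: Anxa2 1.88-fold and S100a10 1.32-fold (adjusted p = 0.028). The S100a10 call was lost in 5 of 12 fits that left out 1 array (adjusted p at most 0.0887, without LPS replicate 2), and on centring the arrays on their medians (0.0681) or on exon controls (0.337). Serpinb2, a serpin gene of this list, differed by 0.33 and did not pass (adjusted p = 0.182). TsSP added to inulin gave 4 higher of 13, namely Procr, Thbd, Anxa2 and Lrp1, and 0 lower, beside 8.66% and 7.99% of all genes.

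The disintegrin metalloproteinases Adam8 and Adamts4 moved in opposite directions. Adam8 encodes a membrane-bound sheddase of leukocytes, and Adamts4 encodes a secreted aggrecanase. Adam8 stood at 14.96, 14.99 and 15.10 with LPS alone and at 15.15, 15.18 and 15.06 with inulin. It stood at 16.46, 16.36 and 16.41 with TsSP and at 16.10, 16.32 and 16.31 with inulin and TsSP. Arrays with TsSP were all well above those without, and arrays of a group lay close together. Adam8 rose 2.63-fold with TsSP, from 15.01 ± 0.077 to 16.41 ± 0.048 (SD, n = 3; log2 difference 1.39, SE 0.11, limma adjusted p = 4.98e-06).

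RefSeq promoter sequences on the GRCm38.p6 assembly matched 6 of the 10 genes (Plaur, Adam8, Mmp13, Mmp12, Mmp14 and Timp1). Those of the pair of these genes that rose with TsSP are printed, to show what the 250 bases before their starts share and do not share. The capitals mark matches of the motifs searched on both strands: AP-1 (TGANTCA), the hypoxia response core (ACGTG), NF-kB and the TATA box (TATAAA). The Adam8 stretch, chr7:139992563-139992812 on the minus strand, held none of the 4 motifs, which says only that these letters are not in this window. The Mmp13 stretch, chr9:7272264-7272513 on the plus strand, held an AP-1 match 35 to 29 bases and a TATA box match 16 to 11 bases before the start.
Adam8 promoter: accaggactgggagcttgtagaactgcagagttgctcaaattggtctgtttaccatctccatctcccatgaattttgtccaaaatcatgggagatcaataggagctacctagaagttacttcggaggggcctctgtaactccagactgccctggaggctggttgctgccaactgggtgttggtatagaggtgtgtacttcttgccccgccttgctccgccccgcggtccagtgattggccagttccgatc
Mmp13 promoter: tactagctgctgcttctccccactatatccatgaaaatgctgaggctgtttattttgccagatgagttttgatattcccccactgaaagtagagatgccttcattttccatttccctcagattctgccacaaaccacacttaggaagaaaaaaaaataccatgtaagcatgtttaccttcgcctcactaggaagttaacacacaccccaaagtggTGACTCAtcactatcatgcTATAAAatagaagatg
Over all 32851 promoters of the table, 6.75% held an AP-1 match, 16.6% the hypoxia core, 3.9% an NF-kB match and 12.4% TATAAA in the same window. AP-1 letters were also in the Plaur window, 69 to 63 bases before the start, and in 1 of the Mmp12 entries, 44 to 38 bases before it, and neither Plaur nor Mmp12 passed the test with TsSP. The hypoxia core was in the windows of Mmp14 and Timp1, both below background. Such matches describe letters, not binding.

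Adamts4 gave 10.68, 10.35 and 10.91 with LPS alone and 10.73, 11.38 and 10.82 with inulin. It gave 8.02, 7.73 and 8.24 with TsSP and 7.41, 8.03 and 7.97 with inulin and TsSP. The groups with and without TsSP did not come near each other, and all 12 arrays were above background. Means were 10.65 ± 0.28 with LPS alone and 8.00 ± 0.26 with TsSP (SD, n = 3), a 6.28-fold fall (log2 difference -2.65, SE 0.23, limma adjusted p = 1.21e-05). In cells with inulin the mean was 10.98 ± 0.35, and with TsSP it fell 9.03-fold to 7.80 ± 0.34 (log2 difference -3.18, adjusted p = 3.18e-06 in limma).

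On the deposited values, relatives of both genes were called in both directions. Of 12 other ADAM genes measured, 4 were above background. With TsSP 2 rose and 1 fell (median -0.06 on the log2 scale), where 11% of all genes passed as higher and 7.08% as lower. On exon control centring, which moved the median of all genes to -0.19, 0 of the 12 were higher and 3 lower (median -0.26). On that scale 1219 of all 19505 genes were called higher and 2609 lower. Adam9 rose 1.35-fold and Adam10, the gene of a general sheddase, 1.33-fold, while Adam17, the gene of the tumour necrosis factor converting enzyme, was 1.32-fold lower (limma adjusted p = 0.0173, 0.0494 and 0.0199). Those 3 calls did not hold in every fit that left out 1 array. Adam10 lost its call in 10 of 12 such fits (limma adjusted p up to 0.147, without LPS replicate 1). Adam9 lost its call in 3 (up to 0.0601, without TsSP replicate 3) and Adam17 in 3 (up to 0.0651, without TsSP replicate 1). Adam10 also lost its call under each of the 3 other scalings, and Adam9 on exon control centring. With inulin present, Adam9 and Adam10 were higher (1.29-fold and 1.33-fold) and 0 ADAM genes were lower, beside 8.66% and 7.99% of all genes. Of 17 other ADAMTS genes, 2 were above background. With TsSP 1 rose and 1 fell (median -0.14), beside the same 11% and 7.08% of all genes. On exon control centring 1 was higher and 3 lower (median -0.35), beside the same 1219 and 2609 of all 19505 genes. Adamts1, another secreted aggrecanase gene, fell 2.24-fold (adjusted p = 0.00025 in limma), and Adamts10 was at least 1.38-fold higher (adjusted p = 0.0186), a call lost in 4 of 12 fits (up to 0.0788, without TsSP replicate 2). With inulin, Adamts1 fell 2.39-fold and 0 of the 17 rose. Adamts8 was also called lower there, but below background in both groups.

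Of the matrix metalloproteinase genes, Mmp13 rose with TsSP, Mmp9 and Mmp12 did not pass the test, and Mmp14 was not detectable. Mmp13, the rodent interstitial collagenase gene, was at 15.31, 15.45 and 15.28 with LPS alone and at 15.22, 15.37 and 15.22 with inulin. With TsSP it was at 15.82, 15.78 and 15.77, and with inulin and TsSP at 15.74, 15.79 and 15.82. No array with TsSP was as low as any without it. The step was small: 1.36-fold, from 15.35 ± 0.092 to 15.79 ± 0.025 (SD, n = 3; log2 difference 0.44, SE 0.10, limma adjusted p = 0.0118). It was 1.425-fold when TsSP was added to inulin (adjusted p = 0.00514). The Mmp13 call for TsSP against LPS alone was lost when arrays were centred on exon controls (log2 difference 0.23, adjusted p = 0.21) and when the 2 groups were fitted alone (adjusted p = 0.0594).

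Mmp9, the gene of a gelatinase, was at 14.63, 14.85 and 14.98 with LPS alone and at 14.82, 14.88 and 14.64 with inulin. TsSP arrays were at 15.23, 15.13 and 14.98, and arrays with inulin and TsSP at 14.77, 15.12 and 14.99. Values of the LPS and TsSP groups met at 14.98. The difference was 0.29 (95% interval -0.016 to 0.60, limma adjusted p = 0.199), and 0.18 when TsSP was added to inulin (adjusted p = 0.471). Modelling the spread with a trend over signal would call the first of these (adjusted p = 0.0229).

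Mmp12, the macrophage elastase gene, was at 16.77, 16.78 and 16.69 with LPS alone and at 16.82, 16.72 and 16.87 with inulin. The TsSP arrays read 16.83, 17.02 and 17.00, and those with inulin and TsSP 16.97, 16.96 and 16.99. All TsSP arrays were above all LPS arrays by a small margin. The difference of 0.20 (95% interval -0.028 to 0.43) did not pass (limma adjusted p = 0.237), nor did the 0.17 with inulin (adjusted p = 0.337). With a trend over signal both would be called (adjusted p = 0.0108 and 0.0342), and on exon control centring the first was -0.0039.

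Mmp14, which encodes a membrane-anchored metalloproteinase, was at 3.64, 3.31 and 3.53 with LPS alone, at 2.95, 3.14 and 3.10 with TsSP, at 3.43, 3.57 and 3.13 with inulin, and at 3.63, 3.16 and 3.37 with both. All of these were below background, so no fold is given. The difference with TsSP did not pass (limma adjusted p = 0.0941), although it passed on exon control centring (adjusted p = 0.0187).

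In the RefSeq gene order, Mmp13 and Mmp12 are neighbours at the start of a run of metalloproteinase genes that goes on with Mmp1b, Mmp3, Mmp1a, Mmp10, Mmp8, Mmp27, Mmp20 and Mmp7. Mmp13 and Mmp12 were above background on all 12 arrays and Mmp10, a stromelysin gene, on 11, while Mmp3, Mmp1a, Mmp8, Mmp20 and Mmp7 were below it on all. Over the whole list, 16 other metalloproteinase genes were measured and 2 were above background (median difference -0.04 with TsSP). With TsSP 1 of the 16 was called higher and 1 lower, beside 11% and 7.08% of all genes. On exon control centring 1 was higher and 2 lower (median -0.24), beside 1219 and 2609 of all 19505 genes. Mmp25, the gene of a leukocyte membrane-anchored metalloproteinase, fell 2.79-fold with TsSP and 3.66-fold when TsSP was added to inulin (limma adjusted p = 0.000249 and 4.29e-05). Mmp8 was called higher in both comparisons, with both groups below background. Mmp10 was at least 1.88-fold lower when TsSP was added to inulin (adjusted p = 0.0385), and its difference of -0.27 against LPS alone did not pass (adjusted p = 0.628).

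Timp1, the gene of a secreted metalloproteinase inhibitor, was below background on every array. It read 3.39, 3.58 and 3.63 with LPS alone, 3.31, 3.54 and 3.33 with TsSP, 2.42, 3.22 and 2.96 with inulin, and 3.79, 3.23 and 3.02 with both. Its inulin arrays were all below its LPS arrays, and how many of all genes separate in that comparison was not counted. The difference of -0.66 did not pass (unadjusted p = 0.013, adjusted p = 0.71 in limma). Under background that difference has no fold.

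Of 19 other inhibitor genes measured, 8 were above background. With TsSP 4 rose and 1 fell (median -0.06), beside 11% and 7.08% of all genes. On exon control centring 1 was higher and 2 lower (median -0.26), beside 1219 and 2609 of all 19505 genes. Serpina3f, a serpin gene, was at least 5.31-fold lower (limma adjusted p = 2.86e-06) and at least 5.80-fold lower when TsSP was added to inulin. Stfa3, which encodes a stefin that blocks cysteine proteases, was at least 1.21-fold higher against LPS alone, with both groups below background in the presence of inulin. Probes for Serpina3f and Stfa3 may also read near-identical family members. Timp2, a relative of Timp1, rose 1.34-fold, Wfdc17 1.37-fold and Serpinb6a 1.28-fold (adjusted p = 0.0236, 0.0216 and 0.0262). Those 3 lost their calls in 5 of 12 fits each that left out 1 array (adjusted p up to 0.0936 and 0.0772 for Timp2 and Serpinb6a without TsSP replicate 3, and up to 0.0814 for Wfdc17 without LPS replicate 2) and on exon control centring (0.271, 0.373 and 0.202 for Timp2, Serpinb6a and Wfdc17). With inulin present, 2 of the 19 were higher, Stfa3 and Serpinb6a, and 2 lower, Serpina3f and A2m, beside 8.66% and 7.99% of all genes. A2m was below background in both groups. Proprotein convertases remove the prodomains of ADAM and membrane-type metalloproteinases. In limma, 0 of 7 were called with TsSP, where 18.1% of all genes passed, and 0 of 7 with inulin present, where 16.7% did. At an unadjusted p under 0.05 there were 2 of 7 in each case, beside 28.7% of all genes without inulin and 27.4% with it. On exon control centring 2 of 7 were lower against LPS alone, beside 2609 of all 19505 genes. On the deposited values, inulin and TsSP against LPS alone called Pcsk5 lower (limma adjusted p = 0.0381), with both groups below background. Furin differed by 0.13 (adjusted p = 0.611).

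Thbs1, the gene of thrombospondin-1, a matricellular protein that binds CD47 and CD36 and activates latent TGF-beta, had the largest standard error of the 10 genes. It read 7.82, 7.40 and 8.34 with LPS alone and 9.77, 9.43 and 8.68 with TsSP. With inulin it read 8.59, 8.17 and 8.59, and with inulin and TsSP 9.48, 9.11 and 8.95. All TsSP arrays were above all LPS arrays, and all arrays with both were above all inulin arrays, while the highest LPS array was above the lowest inulin array. Thbs1 rose 2.70-fold with TsSP, from 7.86 ± 0.47 to 9.29 ± 0.56 (SD, n = 3; log2 difference 1.43, SE 0.29, limma adjusted p = 0.005). With inulin present, the rise from 8.45 ± 0.24 to 9.18 ± 0.27 was 0.73 (95% interval 0.087 to 1.38) and did not pass (adjusted p = 0.127), although it did with a trend over signal (0.0312) or with the 2 groups alone (0.0448).

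Among 37 other matrix and matricellular genes, 5 were above background. With TsSP 3 were called higher and 2 lower (median -0.02), beside 11% and 7.08% of all genes. On exon control centring 2 were higher and 3 lower (median -0.23), beside 1219 and 2609 of all 19505 genes. Emilin2, an elastin-interface glycoprotein gene, rose 2.50-fold, and Tgfbi, a TGF-beta-induced matrix protein gene, 1.80-fold (limma adjusted p = 2.83e-05 and 9.52e-05). Lamc1, a laminin chain gene, rose 1.52-fold (adjusted p = 0.0364), a call lost in 4 of 12 fits that left out 1 array (up to 0.127, without LPS replicate 1) and on exon control centring (0.119). The genes called lower, Emilin1 and Col3a1, were below background in both groups. TsSP added to inulin called 4 of the 37 higher and 0 lower, beside 8.66% and 7.99% of all genes. The 4 were Emilin2 (2.29-fold), Tgfbi (1.80-fold), Lamc1 (1.53-fold), and Vwf with both groups below background.

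**Figure D2:**
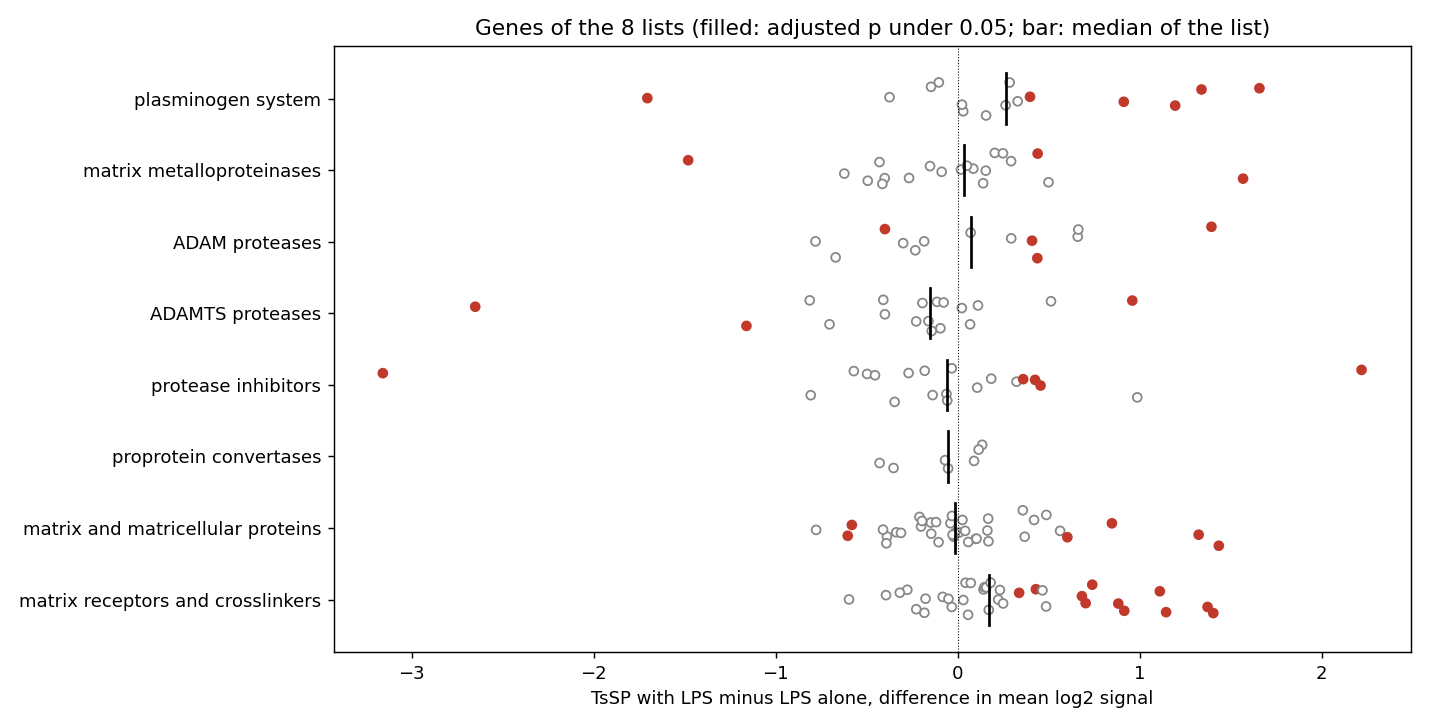
Difference in mean log2 signal between TsSP with LPS and LPS alone for each measured gene of 8 lists, including the 10 genes themselves. Filled points had an adjusted p under 0.05, among them Mmp8, Emilin1 and Col3a1, which were below background in both groups, and bars are list medians. The medians run from -0.15 for ADAMTS proteases to 0.26 for the plasminogen system, and most points are open.

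The second comparison without shared arrays, TsSP added to inulin, asked whether the response to TsSP was also measured in inulin-treated cells. It called 4 of the 10 genes where 16.7% of all genes passed. Adam8 and Mmp13 were higher, beside 8.66% of all genes, and Plau and Adamts4 lower, beside 7.99%. The share of higher genes among all calls was 52% here and 37% on exon control centring, with 2 of the 10 higher and 2 lower on both scales. That centring called 1188 of all 19505 genes higher and 2021 lower. The 2 groups did not overlap in 7 of the 10 genes, beside 32.7% of all. Adam8 rose 2.16-fold, from 15.13 ± 0.060 to 16.24 ± 0.12 (SD, n = 3; limma adjusted p = 2.83e-05).

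Against LPS alone, inulin and TsSP together called the 5 genes that TsSP alone did, where 17.6% of all genes passed, 10.3% as higher and 7.3% as lower (58.5% of calls higher, and 30.5% on exon control centring). This comparison has the LPS arrays in common with the first. Adam8 was 2.34-fold higher, Thbs1 2.51-fold and Mmp13 1.35-fold, and Plau was 2.74-fold and Adamts4 7.18-fold lower (limma adjusted p = 1.26e-05, 0.00821, 0.0128, 0.000263 and 7.02e-06 in that order). On exon control centring Mmp13 was not called (log2 difference 0.24, adjusted p = 0.202), nor was it with the 2 groups alone (adjusted p = 0.0764).

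No difference with inulin passed the test in any of the 10 genes. Against LPS alone, 0 of 10 were called where 0% of all genes passed, and at an unadjusted p under 0.05 in limma there was 1 of the 10, Timp1, and 1143 of all genes (5.86%). The intervals show what could have been missed: the difference was 0.11 for Adam8 (95% interval -0.12 to 0.35), 0.0099 for Plau (-0.41 to 0.43), 0.33 for Adamts4 (-0.18 to 0.84) and 0.59 for Thbs1 (-0.052 to 1.24). Inulin added to TsSP likewise called 0 of 10, beside 0% of all genes, with 0 of the 10 and 971 of all genes (4.98%) at an unadjusted p under 0.05. For Adam8 all 3 arrays with both were below the 3 with TsSP, by 0.17 in the mean (limma adjusted p = 0.993). For Mmp14, under background, all 3 were above. The share of all genes whose arrays separate in this comparison was not counted. Each of these counts of called genes was also 0 under every other setting tried.

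**Figure D3:**
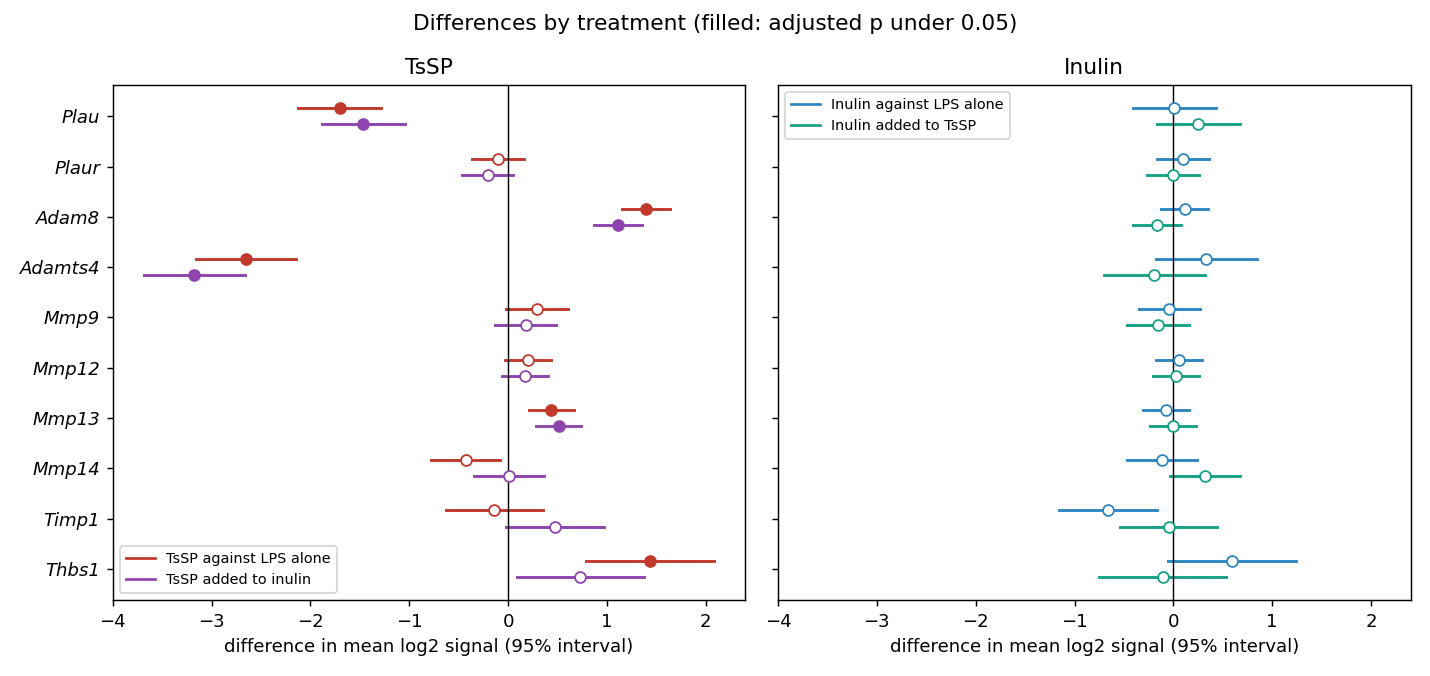
Difference in mean log2 signal with its 95% interval for the 10 genes, for TsSP (left) against LPS alone and added to inulin, and for inulin (right) against LPS alone and added to TsSP. Filled points had an adjusted p under 0.05. TsSP points are filled for Adam8, Plau, Adamts4 and Mmp13 in both comparisons and for Thbs1 against LPS alone, while no inulin point is filled.

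Whether the TsSP difference depended on inulin was tested as an interaction, the TsSP difference with inulin minus that without it. It called 0 of 10 genes and 0% of all genes, and at an unadjusted p under 0.05 in limma 0 of the 10 and 1089 of all (5.58%). The interaction was -0.28 for Adam8 (95% interval -0.62 to 0.058, adjusted p = 0.926), -0.52 for Adamts4 (-1.25 to 0.20, 0.962), 0.24 for Plau (-0.35 to 0.84, 0.982) and 0.072 for Mmp13 (-0.25 to 0.40, 0.995). For Thbs1 it was -0.70 (-1.61 to 0.21, adjusted p = 0.939), so passing against LPS alone and not with inulin does not show that the response differed. The intervals are wide enough to hold differences of more than 1 in log2 for Adamts4 and Thbs1.

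The order of the groups was the same in kind for the 4 genes called in both comparisons: both groups with TsSP at one end and both without it at the other. Neighbours within each end did not differ beyond the test. Thbs1 had such an order too, from low to high LPS alone, inulin, inulin with TsSP, and TsSP. Its lowest array with TsSP (8.68) was just above its highest without it (8.59). No pair of neighbours in that order passed the test for Thbs1.

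By root mean square distance between centred log2 signals over the 12 arrays, among 8843 candidate genes, the nearest pattern to Adam8 was that of Slc2a1, a glucose transporter gene (distance 0.0637), followed by Abhd4 (0.0723). Calr, the calreticulin gene (0.048), and Sting1 (0.0618) were nearest to Mmp13. The nearest genes to Adamts4 were Malt1, a paracaspase gene (0.258), and Tnf, the tumour necrosis factor gene (0.295). For Plau they were Dock10 (0.187) and Daxx (0.191), and for Thbs1 N4bp2 (0.275) and Nfic (0.289). A smaller distance comes more easily to a gene that varies little, and the 12 centred values of the genes had an SD of 0.26 for Mmp13 and 1.55 for Adamts4.

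**Figure D4:**
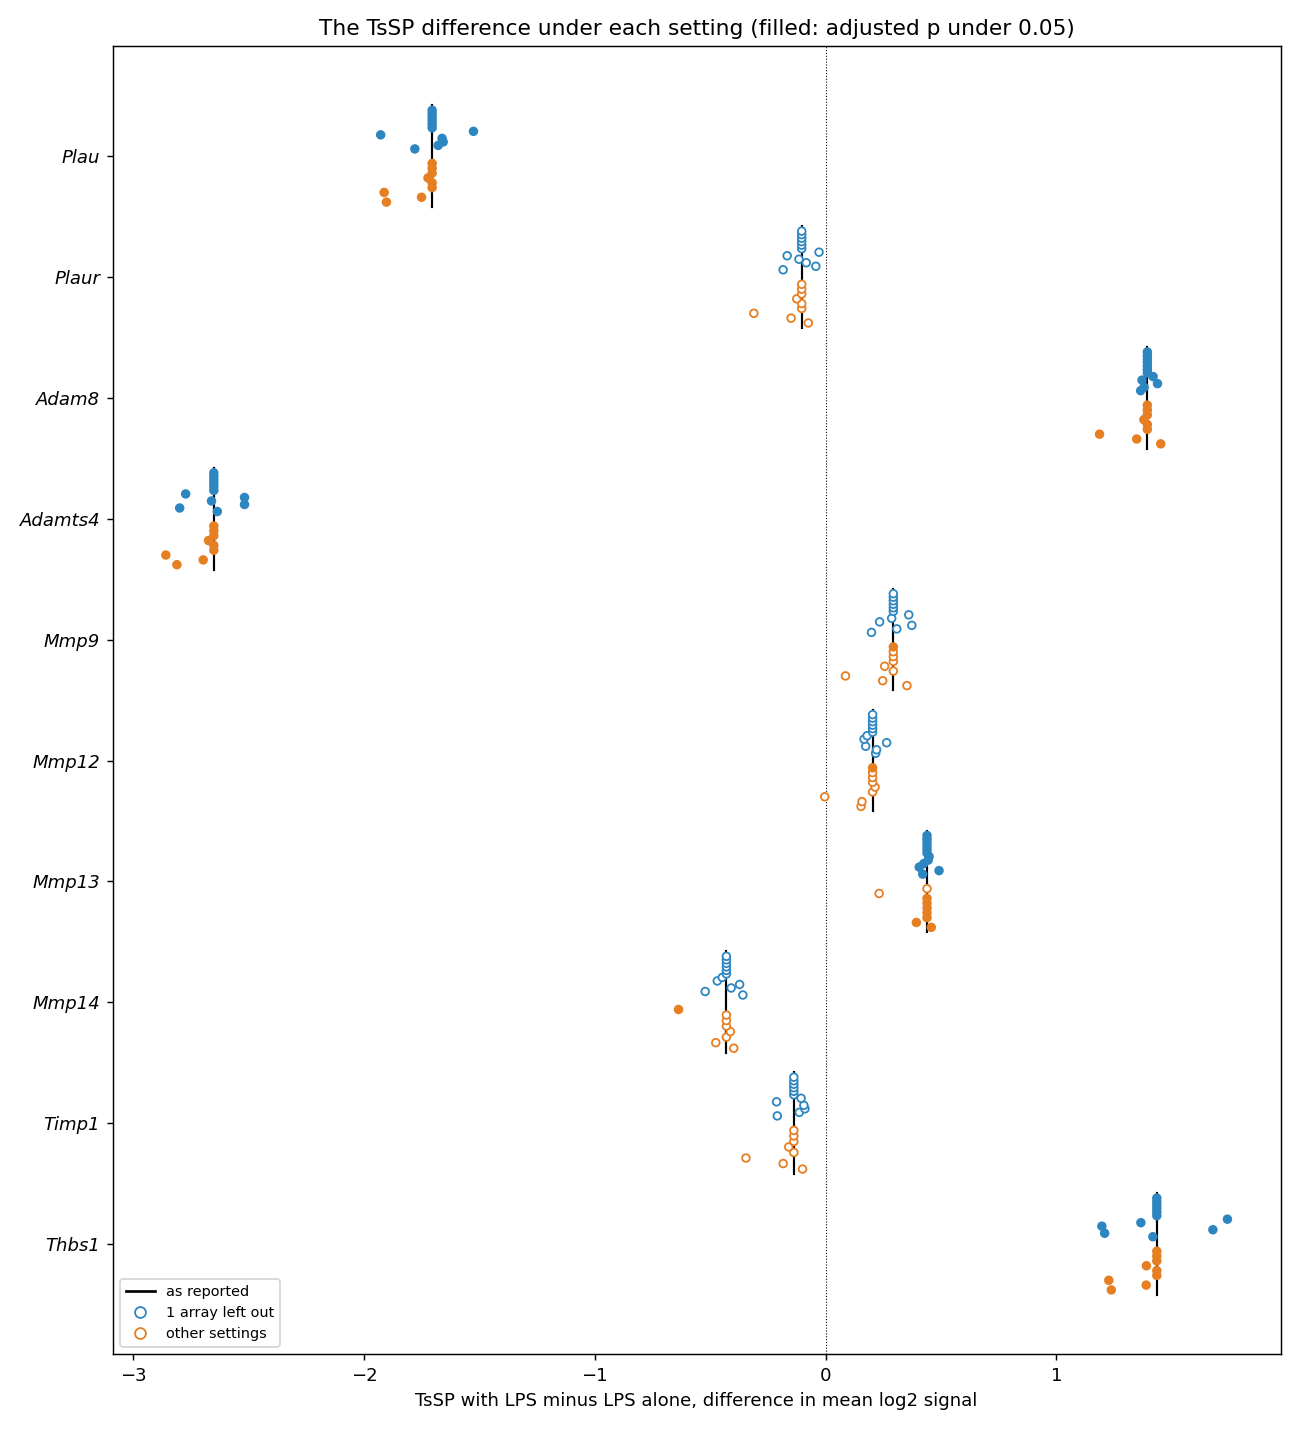
Difference in mean log2 signal between TsSP with LPS and LPS alone for each of the 10 genes under every setting tried, with the reported value as a black line, fits without 1 array in blue and other settings in orange. Filled points had an adjusted p under 0.05. Points for Plau, Adam8, Adamts4 and Thbs1 are filled under every setting, Mmp13 has 2 open points, and Mmp9, Mmp12 and Mmp14 have 1 filled point each.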

How the data were processed

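RNA of RAW 264.7 cells was measured on 12 Affymetrix mouse arrays, labelled with biotin per the labels' protocols. The authors deposited 1 log2 value per probe set and array. The base is inferred from the values (1.32 to 18.9), and how the authors corrected background and normalized is not given in the sources used here. Compression of bright or dim signals in that step would enter every fold. The values were used as deposited. Of 28846 probe sets, 19572 have 1 gene symbol, matched by gene number to RefSeq GRCm38.p6 for names alone; 55 genes had several probe sets, and the one with the highest mean was used, leaving 19505 genes. Where some arrays of the dimmer group were below background, the fold is a bound: the brighter mean set against the dimmer mean after each dim array was raised at least to its background level. Folds are 2 to the power of a difference of mean log2 values.

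One limma model (3.58.1, R 4.3.3) held a mean for each of the 4 groups (8 residual and 3.35 prior degrees of freedom), with 6 contrasts and an F test; tests were two-sided, with Benjamini-Hochberg adjustment across all genes and a threshold of 0.05. The scripts were tested on simulated data. Plots used matplotlib 3.10.9 (Python 3.11.15).

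The genes, the lists (plasminogen system, matrix metalloproteinases, ADAM and ADAMTS proteases, protease inhibitors, proprotein convertases, matrix and matricellular proteins, matrix receptors and crosslinkers, and markers of 7 cell types) and the tests were chosen with earlier results of these data known. Named were all 10 genes, up to 4 called genes per list and comparison by smallest p (more for counts of 5 or fewer), and the 2 genes nearest in pattern to each gene called by the F test, leaving out predicted and small RNA genes. Furin, Serpinb2, Itgav, Bsg, Hpse and the marker genes were named outside that rule, after their values were seen. Some list members are not analysed here. Alternatives were quantile normalization, centring on array medians or on exon controls, genes above background alone, a mean-variance trend, array weights, the 2 groups alone, the replicate number as a block, the mean over a gene's probe sets, and leaving out each array.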

Additional observations from a re-analysis of the deposited data

How the results depend on the processing

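Over all settings, no called difference of the 10 genes turned its sign (36 that were not called did), and the number of the 10 called stayed within 1.5 times the reported one in each comparison. Adam8, Plau and Adamts4 were called under every setting in each of the 3 comparisons with TsSP, and Thbs1 against LPS alone. Of 1436 values of single genes under an alternative, 1421 kept their side of the threshold, 5 lost a call (all Mmp13) and 10 gained one (Mmp9, Mmp12, Mmp14 and Thbs1). Leaving out each array in turn gave 5, 5 and 4 called of the 10 for TsSP, for both agents and for TsSP added to inulin, as reported, and between 2753 and 3452, 2629 and 3326, and 2523 and 3337 of all genes. With the replicate number as a replicate block, 5, 5 and 4 of the 10 and 3203, 3093 and 2941 of all genes were called, and the block changed no call of the 10. Same-numbered arrays did not deviate together (r of -0.094 to 0.10 over 18 pairs, 1 over 0.1). In 3 of the 18 pairs the same number gave the highest correlation, so the numbers were not taken as pairs. Of all genes called with TsSP, 60.8% were higher as deposited and 31.8% on exon control centring, which moved the median of all genes by -0.21. Genes below background, such as Mmp14 and Timp1, could not be followed.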

Other observations

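The receptors and enzymes that hold and modify the matrix were a separate list of 35 measured genes, of which 18 were above background. With TsSP, 11 of the 35 rose and 0 fell (limma, Benjamini-Hochberg over all genes), beside 11% and 7.08% of all genes. The median difference was 0.17 on the log2 scale, with 0.02 over all genes. Enzymes that hydroxylate or crosslink collagen were among the called genes. P4hb and P4ha2, which encode the subunits of a collagen prolyl hydroxylase, rose 2.16-fold and 2.65-fold (adjusted p = 2.24e-05 and 3.21e-05). Plod1, a lysyl hydroxylase gene, rose 1.63-fold (adjusted p = 0.000605). Itgam, the integrin alpha M gene, rose 1.67-fold (adjusted p = 0.000388). Itgav, Bsg and Hpse, also among the 11, lost their calls in 10, 7 and 7 of 12 fits that left out 1 array. Each also lost its call on exon control centring (limma adjusted p = 0.344, 0.502 and 0.0759 in that order). Quantile normalization lost the calls of Itgav and Hpse, and centring on array medians those of Itgav and Bsg. With TsSP added to inulin, 10 of the 35 rose and 0 fell, beside 8.66% and 7.99% of all genes. P4hb (2.10-fold) and P4ha2 (2.41-fold) were among the 10. On exon control centring 8 rose and 3 fell against LPS alone, beside 1219 and 2609 of all 19505 genes. The median on that scale was -0.04, with -0.19 over all genes.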
